A study of Bos taurus with 2 samples.

Results

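The genes described here carry out excitation-contraction coupling and the release, reuptake and storage of calcium in muscle fibres. They were chosen by name as 10 genes, namely *RYR1*, *CACNA1S*, *CACNB1*, *CACNG1* and *STAC3* for calcium release, *ATP2A1*, *ATP2A2* and *SLN* for reuptake, and *CASQ1* and *CASQ2* for storage. A probe was assigned to a gene when its accession matched the symbol in the cattle gene table. In this way 20 probes were found for 9 of the 10 genes, out of 19554 genes with a value on the arrays. No probe accession matched *CACNA1S*, the pore-forming voltage sensor, and it was not analysed here.

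The muscle was the *longissimus thoracis* (LT) of Japanese Black fetuses at 8.5 months of gestation (day 260 ± 8.3), all conceived with male-sorted semen of the same sire. Dams were fed 120% (high nutrition, HN) or 60% (low nutrition, LN) of the nutritional requirement from before pregnancy onward. Total RNA of 4 fetuses per group was pooled, those with the highest bodyweight for HN and those with the lowest for LN, so that diet and the selection by bodyweight cannot be told apart. Each pool was hybridized to 1 one-color array of the same slide. There is thus no replicate, no test and no p-value between the groups, and no error given here covers the variation between fetuses.

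When a muscle fibre is excited, the voltage-gated calcium channel of the transverse tubule acts as a voltage sensor and opens the ryanodine receptor of the adjoining sarcoplasmic reticulum. The released calcium starts contraction, and the fibre relaxes when calcium pumps return it to the reticulum, where calsequestrin binds it. Pump and calsequestrin each occur in a form that predominates in fast fibres (*ATP2A1*, *CASQ1*) and a form found in slow fibres and the heart (*ATP2A2*, *CASQ2*). The labels fast-type and slow-type used below do not mean that a form is confined to that fibre type.

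All 20 probes were well above background on both arrays, none carried an outlier flag and no signal on either array reached saturation. For 42 probes with more than 1 spot on the array, the SD of the log2 LN/HN of a single spot was 0.085, so that 95% of repeated spots lie within 0.17 on the log2 scale, a 1.12-fold change. The scanner software gives a larger error, 10% to 10.1% of the signal for these probes, which amounts to an SE of 0.20 to 0.21 for a log2 LN/HN. The 8 spike-in RNAs, added in equal amounts to both samples, had log2 LN/HN values between -0.08 and 0.05 without normalization. These errors cover the array measurement only. A change past 1.25-fold (log2 0.32) is counted as a difference, and the count is a description and not a test. The study used the same limit for its pathway analysis.

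Differences in these genes between the pools were small. After quantile normalization, only the mean of *CASQ1*, the fast-type calsequestrin, passed 1.25-fold, with less signal in the LN pool. This is 1 of 9 genes (11.1%) past 1.25-fold lower, against 9.11% of all genes on the array, which is close to the background. None was past 1.25-fold higher, against 8.85% of all genes, and none was past 2-fold, against 0.997%. The median log2 LN/HN of the 9 genes was -0.13, with a range from -0.34 to 0.21, while the median of all genes was -0.0033. A lower value at any size was found for 6 of the 9 genes (66.7%), against 50.7% of all genes. This division depends on the scaling, being 8 lower and 1 higher after scaling to the 75th percentile or after cyclic loess, and 7 and 2 without normalization, because *STAC3* and *CACNG1* lie near 0.

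**Figure D1:**
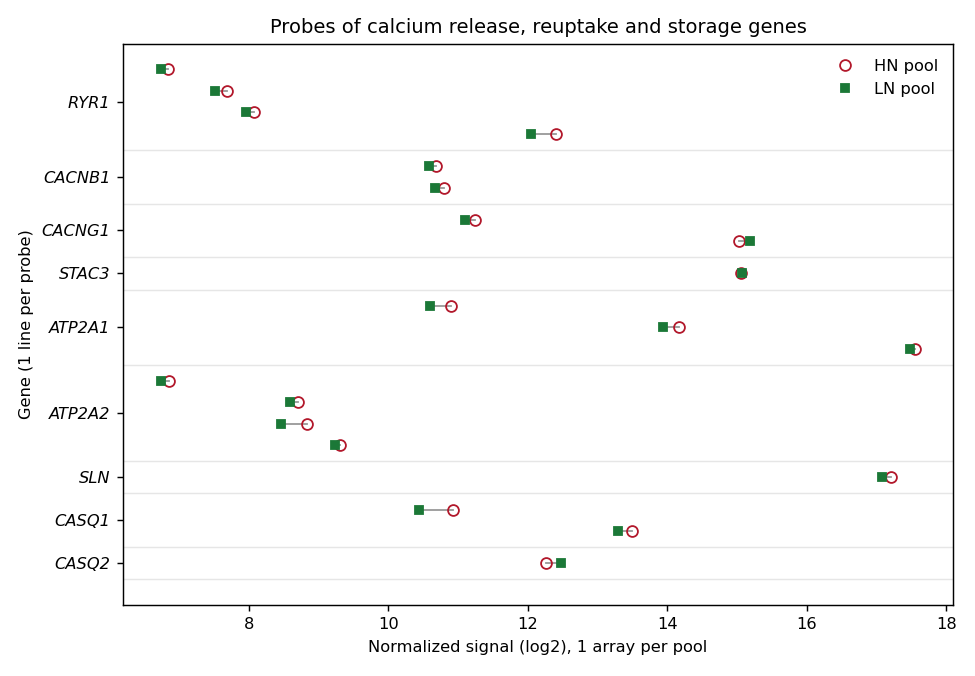
Normalized log2 signal (horizontal axis) of each of the 20 probes, 1 line per probe and grouped by gene (vertical axis), in the HN pool (open circles) and the LN pool (squares), 1 array each. The LN square lies to the left of the HN circle in 17 probes and to the right in 3.

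The signal of a probe also depends on how well it binds its target, so signals are compared between pools and not between probes. By probe, 17 of the 20 were lower in the LN pool, against 50.1% of all probes with a value, and 3 were higher. Of the probes, 3 (15%) were past 1.25-fold lower, 1 each of *RYR1*, *ATP2A2* and *CASQ1*, against 9.44% of all probes with a value. None was past 1.25-fold higher, against 9.11% of all probes. The error of a repeated spot was exceeded in 8 probes, 7 of them lower (35%), against 20.1% of all probes measured on both arrays. With the larger error of the software, only 1 probe lay beyond 1.96 SE, the dimmer probe of *CASQ1*. Several of these probes belong to the same gene, so they are not independent measurements.

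*RYR1* encodes the ryanodine receptor, through which calcium leaves the sarcoplasmic reticulum. Its 4 probes had log2 signals of 12.40, 8.08, 7.69 and 6.85 in the HN pool and of 12.05, 7.96, 7.52 and 6.74 in the LN pool. All 4 were thus lower in the LN pool, but by unequal amounts. The log2 LN/HN was -0.35 for the brightest probe and between -0.17 and -0.10 for the others. The mean was -0.19 ± 0.11 (SD between 4 probes), or 87.8% of the HN signal, within 1.25-fold. It was -0.35, past 1.25-fold, when *RYR1* was represented by its brightest probe alone.

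The subunits of the voltage sensor and its partner differed less. *CACNB1*, the beta subunit that brings the channel to the membrane, had log2 signals of 10.81 and 10.69 in the HN pool and of 10.68 and 10.58 in the LN pool. Its log2 LN/HN was -0.12 ± 0.017 (SD between 2 probes), within the error of a repeated spot. *CACNG1*, the gamma subunit, had 1 probe lower (11.25 in HN and 11.10 in LN) and 1 probe higher (15.02 and 15.19). The probes disagreed in direction, both by less than the error of a repeated spot, and their mean was 0.01 ± 0.22 (SD, 2 probes). The direction of this mean depended on the setting, as it was -0.02 after scaling to the 75th percentile, -0.01 after cyclic loess and -0.15 in the authors' normalized values, which hold the dimmer probe alone. *STAC3*, an adaptor that links the voltage sensor to calcium release, was nearly equal, with 15.06 in HN and 15.07 in LN. Its log2 LN/HN of 0.01 ranged from -0.05 to 0.01 over all settings.

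**Figure D2:**
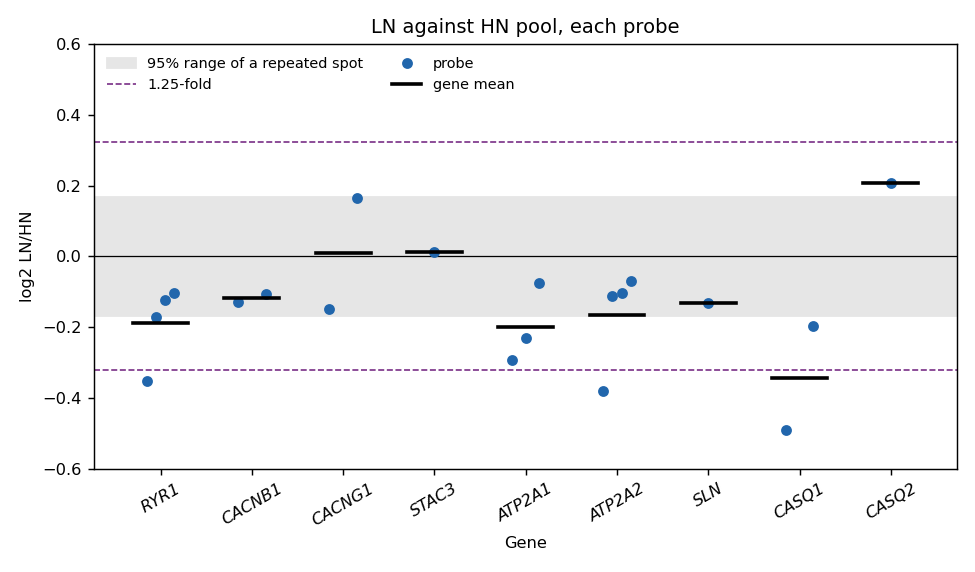
Log2 LN/HN (vertical axis) of each probe (points) and the mean of each gene (bars) for the 9 genes measured (horizontal axis). The grey band is the 95% range of a repeated spot and the dashed lines mark 1.25-fold. The mean of *CASQ1* alone lies past a dashed line, and *CASQ2* is the gene with the highest value.

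All 3 genes of calcium reuptake had less signal in the LN pool, against 50.7% of all genes, and each was within 1.25-fold. *ATP2A1*, the sarcoplasmic reticulum calcium pump of fast fibres (SERCA1), had log2 signals of 17.55, 14.17 and 10.90 in HN and of 17.47, 13.94 and 10.60 in LN. The mean log2 LN/HN was -0.20 ± 0.11 (SD, 3 probes), and the values were -0.075, -0.23 and -0.29 from the brightest to the dimmest probe. *ATP2A2*, the pump of slow fibres, the heart and many other tissues (SERCA2), had 9.31, 8.84, 8.71 and 6.85 in HN and 9.24, 8.46, 8.59 and 6.75 in LN. Of its 4 probes, 1 was at a log2 LN/HN of -0.38, while the others lay between -0.11 and -0.07, with a mean of -0.17 ± 0.14 (SD). The single probe at -0.38 thus gave most of the difference of *ATP2A2*. *SLN* encodes sarcolipin, a small membrane protein that binds the pump and lowers its efficiency. It had 1 probe, at 17.20 in HN and 17.07 in LN, and the log2 LN/HN of -0.13 was within the error of a repeated spot.

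The calsequestrins of both types had values of opposite direction. The probes of *CASQ1* had log2 signals of 13.49 and 10.93 in HN and of 13.29 and 10.44 in LN. Both were lower in the LN pool, by more than the error of a repeated spot, with log2 LN/HN values of -0.20 and -0.49. The mean was -0.34 ± 0.21 (SD, 2 probes), or 78.7% of the HN signal, and 8.05% of all genes had a lower value. Whether *CASQ1* passes 1.25-fold depends on the processing and on the dimmer probe. It was -0.31 without normalization, -0.29 after the normexp background correction and -0.18 in the authors' normalized values, which leave out the dimmer probe, and -0.20 with the brightest probe alone, all within 1.25-fold. Of the 6 alternatives that change its value, these 4 were within 1.25-fold and 2 were past it, and the other 6 leave it as it is. *CASQ2*, the slow-type calsequestrin, had 1 probe, at 12.27 in HN and 12.47 in LN. It was the only gene higher in the LN pool by more than the error of a repeated spot (log2 LN/HN 0.21, 115% of the HN signal), within 1.25-fold and within 1.96 SE by the error of the software. Its probe is not in the authors' table.

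The fast-type and slow-type isoforms were then compared by the difference of their log2 LN/HN, which does not set the signal of one gene against that of another. For the pump the difference of *ATP2A1* minus *ATP2A2* was -0.033, with an error of 0.065 from repeated spots and of 0.16 from the software. Of the 12 pairs of a probe of each gene, 7 had the lower value in *ATP2A1*, with differences from -0.23 to 0.31. The 95% interval from the software error was -0.34 to 0.27, so an unequal change of the pumps within these limits was not detectable. For calsequestrin the difference of *CASQ1* minus *CASQ2* was -0.55, a relative change of 1.47-fold. Its error was 0.10 from repeated spots and 0.25 from the software (95% interval -1.04 to -0.06). Both intervals treat probes as independent and leave out the spread between probes (SD 0.21 for *CASQ1*) and between fetuses. An interval without 0 is therefore not a test. Both probes of *CASQ1* had the lower value, with differences of -0.40 and -0.70 from the probe of *CASQ2*. The difference lay between -0.56 and -0.40 over the 5 alternatives that change it, and that of the pumps between -0.12 and -0.01 over 7. The other alternatives leave these differences as they are or, for calsequestrin, give none. The value rests on 1 probe of *CASQ2*, and it was not tested between animals.

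**Figure D3:**
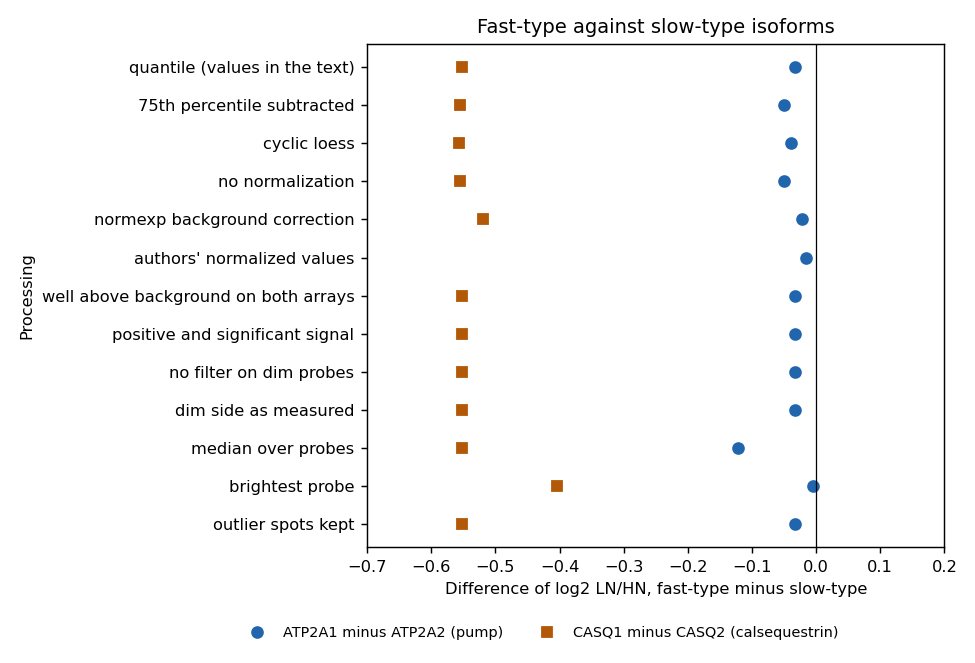
Difference of log2 LN/HN between the fast-type and the slow-type isoform (horizontal axis) for the calcium pump (circles) and calsequestrin (squares) under each processing of the arrays (vertical axis). The pump values lie between -0.12 and -0.01 and the calsequestrin values between -0.56 and -0.40, with none for the authors' values, which lack *CASQ2*.

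Of the fast fibre list, 7 of 10 genes had a value and 2 were past 1.25-fold lower, against 9.11% of all genes. These were *ACTN3* (log2 LN/HN -0.60), a Z-disc protein of fast fibres, and *MYH1* (-0.50), the myosin of fast IIx fibres. The 6 probes of *MYH1* ranged from -0.81 to -0.07. It was at -0.46 with its brightest probe alone and had no value in the authors' table. *TNNT3*, the fast troponin T, was at -0.22, and *MYH2*, the myosin of fast IIa fibres, at 0.03. The fast myosin light chains *MYL1* and *MYL11* were at -0.01 and 0.01, and at -0.04 and -0.03 without normalization. *TNNC2*, the fast troponin C, had the same rank near the top of both arrays, so that quantile normalization fixed its value at 0, and it was at -0.07 without normalization. Of the slow fibre list, 8 of 10 genes had a value. None was past 1.25-fold, against 9.11% of all genes lower and 8.85% higher, which for 8 genes is not far from the background. In this list *MYH7* was at -0.24 and *TNNT1*, the slow troponin T, at -0.12. The medians were -0.01 for the fast and -0.08 for the slow list. Of 8 developmental muscle genes, *MYL4* (-0.97), the myosin light chain of embryonic muscle and atria, was past 1.25-fold lower. *MYH8*, the perinatal myosin, was past 1.25-fold higher (0.35, probes from 0.04 to 0.61), and *MYH3*, the embryonic myosin, was at -0.04. With its brightest probe alone, *MYH8* was at 0.04.

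The other genes of calcium handling were taken from 9 hand-written lists with 124 entries, of which 87 had a value. Of these, 7 (8.05%) were past 1.25-fold lower and 4 (4.60%) past 1.25-fold higher, both under the shares of all genes given above, and the median log2 LN/HN was -0.05. Among the triad and junction proteins, which hold tubule and reticulum together, 11 of 13 genes were lower, against 50.7% of all genes. None was past 1.25-fold, against 9.11% of all genes lower and 8.85% higher. *JPH1*, which ties both membranes, was at -0.14, *TMEM38A*, a cation channel of the reticulum, at -0.14, *JSRP1* at 0.03 and *ASPH*, whose locus also encodes junctin, at 0.07. *JPH2* and *TRDN* had no matched probe. In the list of other release channels and their partners, with 9 values, *HOMER2*, a scaffold protein, was past 1.25-fold higher (0.35, and 0.31 after the normexp background correction), *FKBP1A*, which stabilizes the ryanodine receptor, was at 0.01, and *RYR3* had no value.

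In the list of other subunits of voltage-gated calcium channels and adaptors related to *STAC3*, 3 of 6 genes were past 1.25-fold lower, against 9.11% of all genes. These were *CACNA1D* (-0.49), *CACNB3* (-0.41) and *CACNB2* (-0.34), which are not the subunits of the skeletal muscle voltage sensor. *CACNA2D1*, the subunit that is part of the latter, was at 0.07, and *CACNG6* at -0.24. Their log2 signals in HN were 3.76, 7.19 and 4.74, and after the normexp background correction they were at -0.01, -0.16 and -0.08, all within 1.25-fold. With the brightest probe alone *CACNB3* was at -0.23 and *CACNB2* at -0.11, and with any positive and significant signal *CACNA1D* was at -0.80. Among other pumps and pump regulators, *ATP2A3* was past 1.25-fold lower (-0.35). It was within 1.25-fold after the normexp background correction (-0.19) and after cyclic loess (-0.32), and at -0.64 without a filter on dim probes or with any positive and significant signal. *PLN*, which encodes phospholamban, the inhibitor of the slow-type pump, was at -0.17, and *MRLN* and *STRIT1* had no matched probe.

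For storage and buffering, *RCN1*, a calcium-binding protein of the endoplasmic reticulum, was past 1.25-fold higher (0.34, with all 5 probes between 0.30 and 0.43). It was at 0.31, within 1.25-fold, after the normexp background correction. *CALR*, the calreticulin of the same compartment, was at 0.17 and *PVALB*, the cytosolic buffer of fast fibres, at -0.20. *HRC*, which binds calcium in the reticulum, had the same rank on both arrays, which quantile normalization turns into equal values, and was at -0.01 without normalization. *SRL* had no matched probe. In store-operated entry, *STIM1*, the sensor of the store, was at -0.03 and *ORAI1*, the channel it opens, at 0.10, and *TRPV4*, a cation channel, was past 1.25-fold lower (-0.45, but -0.02 without a filter on dim probes or with any positive and significant signal, and -0.18 after normexp). In mitochondrial uptake, *MCU*, the pore of the uniporter, and its paralog *MCUB*, which lowers its activity, were past 1.25-fold higher (0.38 and 0.36). *MCUB* was within 1.25-fold after the normexp background correction (0.23) and after scaling to the 75th percentile (0.32).

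Of membrane excitability, 8 genes had a value. None was past 1.25-fold, against 9.11% of all genes lower and 8.85% higher, which for 8 genes is not far from the background. *CLCN1*, the chloride channel of muscle, was at -0.06, and *SCN4A* had no matched probe. In calcium-dependent signaling, *RCAN1*, a regulator of the phosphatase calcineurin, had a log2 signal of 10.54 in HN and 9.50 in LN. Its log2 LN/HN of -1.03 ± 0.08 (SD, 2 probes) was the only value past 2-fold among these 87 genes, and it lay between -1.05 and -0.81 over all settings. *CAPN3*, a calcium-dependent protease of muscle, was past 1.25-fold lower (-0.47 ± 0.072, SD, 5 probes). *PPP3CA*, a catalytic subunit of calcineurin, was at -0.11 and *CAMK2A* at 0.07.

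**Figure D4:**
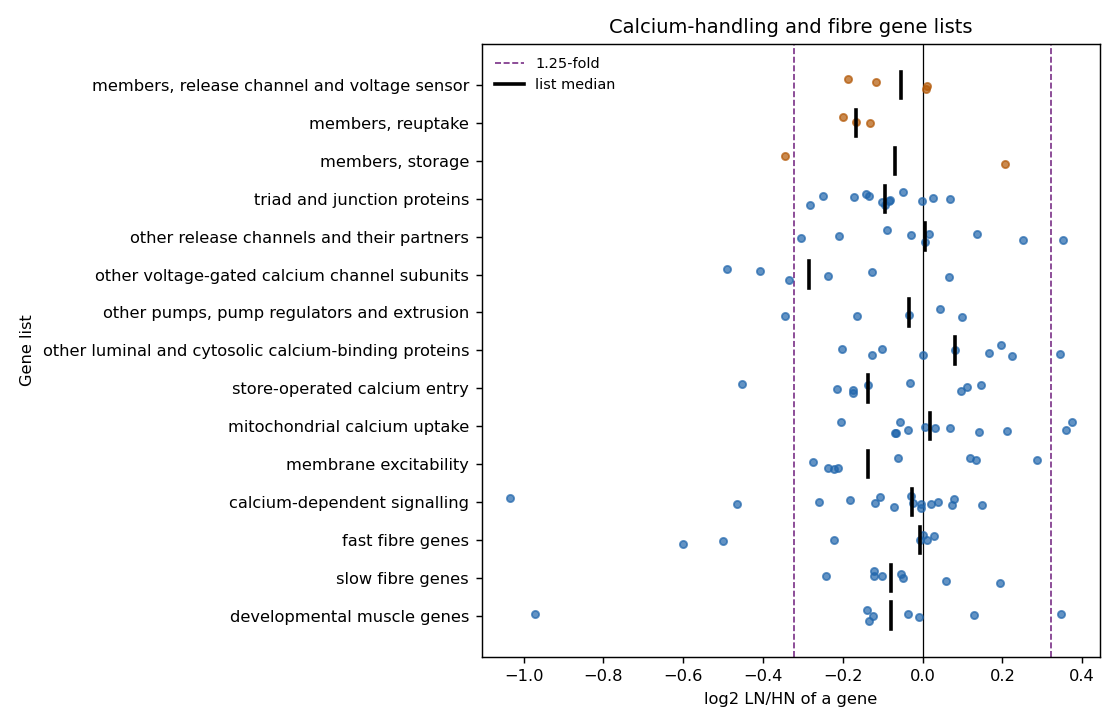
Log2 LN/HN (horizontal axis) of each gene with a value (points) in the lists of calcium handling and fibre genes (vertical axis), with the median of each list (bars) and 1.25-fold marked by dashed lines. The 9 genes of release, reuptake and storage lie between -0.34 and 0.21, and *RCAN1* (-1.03) and *MYL4* (-0.97) are the points farthest to the left.

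In pooled tissue RNA, fewer cells of a type and less RNA per cell cannot be told apart. The mean log2 signal of 6 markers of muscle fibres, all well above background, was 15.49 in HN and 15.40 in LN, with 4 lower and 2 higher. *MB* was past 1.25-fold lower (log2 LN/HN -0.37), and the others lay between *CKM* at -0.24 and *TCAP* at 0.18. *ATP2A2* is also made in smooth muscle, and of the 8 markers of smooth muscle and pericytes 7 were lower in the LN pool, against 50.7% of all genes, and 3 past 1.25-fold lower, against 9.11%, with a mean log2 signal of 8.88 in HN and 8.64 in LN. Of the heart muscle markers, 2 of 6 had a value. *TNNI3* was at -0.26 and *MYBPC3* at 0.34, past 1.25-fold higher, with 1 of its 3 probes dim on 1 array, while *NPPA* and *NPPB* were not well above background on either array, and *MYH6* and *MYL7* had no matched probe. Fibroblast markers were higher in the LN pool in 6 of 6 genes, 4 past 1.25-fold, against 8.85% of all genes, with means of 10.86 and 11.16. Endothelial markers were lower in 5 of 6, against 50.7% of all genes, and 1 was past 1.25-fold lower, against 9.11%, with means of 8.40 and 8.21. The lists of adipocytes (3 values), nerve (5) and blood cells (6) had medians of 0.22, 0.03 and -0.11. In these lists *FABP4* of adipocytes was past 1.25-fold higher (0.39) and *CD68* of blood cells past 1.25-fold lower (-0.35). The part of these cell types in the values of *ATP2A2*, *CASQ1* and *CASQ2* was not tested.

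By the order of genes in the table, no 2 of the 9 genes are neighbors. Of their 18 neighboring protein-coding genes, 11 had a value. None of the 11 was past 1.25-fold, against 9.11% of all genes lower and 8.85% higher, which for so few genes is not far from the background. On either side of *CASQ1*, *PEA15* was at -0.08, while the 2 probes of *ATP1A4* disagreed in direction (-0.47 and 0.71), so that its mean is no usable value.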

How the data were processed

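Total RNA of the LT muscle, pooled from 4 fetuses per group, was measured on 2 one-color Agilent Bovine (v2) arrays. The authors extracted spot intensities with Agilent Feature Extraction 11.0.1.1 and deposited them background-corrected, without normalization between arrays. The authors also deposited log2 values, quantile-normalized in GeneSpring GX, for 30027 probes. Their log2 scale was judged from the values, which follow the values used here (Pearson's r across probes of 0.9997 in HN, 0.9994 in LN). For 43803 non-control spots per array, log2 intensities were quantile-normalized (limma 3.58.1, R 4.3.3), 13 spots with an outlier flag were removed, and repeated spots were averaged. Probes that the software marked well above background on either array were used. If only 1 array carried the mark, the other value was raised to the lowest marked signal where it lay below it. Such a probe was left out if its signal was then not higher on the marked array. This left 31986 of 32776 probes with a value. A gene is the mean of its probes. Of 43652 probes, 26742 matched a symbol in the RefSeq gene table (ARS-UCD2.0), from which names and gene order alone were taken, and the others were grouped by accession. Python 3.11.15, numpy 2.4.6, pandas 2.3.3 and matplotlib 3.10.9 were used, and the steps were tested on simulated data. The number of arrays limits the precision.

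The 10 genes, the 12 pathway lists (152 entries) and the 8 marker lists (51 entries) were chosen with earlier results of these data known. Named are the 10 genes, pathway list genes past 1.25-fold measured on both arrays and a fixed set of partners, and other genes were named after their values were seen. The values of some of these partners are not reported here. For the normexp background correction (offset 50), median spot signals were used, since the scanner tables hold no mean signal.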

Additional observations from a re-analysis of the deposited data

How the results depend on the processing

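Over 12 alternatives, 204 of 226 recomputed values stayed within the spread between probes of a gene (SD 0.098, the median over genes) or, for counts, within 1.5 times, and no called value changed sign. Changes of the filter or of outlier spots cannot move the values of the 9 genes, whose probes were all bright and without a flag. These fixed values are counted among the 204, so the total overstates how stable the 9 genes are. The count of the 9 genes past 1.25-fold lower went from 1 to 0 without normalization, after the normexp background correction and in the authors' normalized values, and the count past 1.25-fold higher was 0 throughout. With the brightest probe alone the log2 LN/HN was -0.35 for *RYR1*, 0.16 for *CACNG1*, -0.075 for *ATP2A1* and -0.20 for *CASQ1*, and the calsequestrin difference was -0.40. In the authors' values it was -0.15 for *CACNG1* and -0.18 for *CASQ1*. Of all genes, 1781 were past 1.25-fold lower and 1731 higher (49.3% higher). These counts were 2693 lower when the 75th percentile was subtracted (30.7% higher), 386 and 319 after normexp, 3785 and 3121 with any positive and significant signal, and 3592 and 3251 without a filter on dim probes. Without normalization, 39.3% of the called genes were higher. In the other calcium lists, the 7 lower genes became 11 when the 75th percentile was subtracted and 2 after normexp. The 4 higher genes became 1 after normexp and 7 with any positive and significant signal or without a filter on dim probes. All 20 probes of the genes described were well above background. No paired analysis was possible because each group has 1 array. Leaving out a replicate was not possible for the same reason.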
